A study of Homo sapiens with 24 samples.

Results

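The 8 genes described here encode enzymes of the pentose phosphate pathway and the step that follows it, namely TKT, TALDO1, PGLS, PGD, RPIA, RPE, PRPS1 and PRPS2. They were taken by gene name from a table of 60504 gene rows, so they are 8 of 60504. The rule used names only, but the 8 genes were chosen with earlier results of these data known. Counts among the 8 are thus not those of an unselected set. All 8 passed the filter of a mean of at least 1 TPM (a transcript level corrected for length and scaled to the same total in every library) in every comparison. The study compared cells transfected with siRNA against GCDH (siGCDH) with cells given a control siRNA (siControl), to see what loss of GCDH does to gene expression, and its title ties melanoma cells, GCDH and NRF2 together. The GCDH product, glutaryl-CoA dehydrogenase, works in mitochondria in the breakdown of lysine and tryptophan.

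The pathway branches off glycolysis. Its oxidative branch, which contains PGLS and PGD, oxidises a glucose phosphate and makes NADPH, which cells use to keep glutathione reduced and to build lipids. Its non-oxidative branch, which contains RPIA, RPE, TKT and TALDO1, interconverts sugar phosphates and yields the ribose 5-phosphate from which PRPS1 and PRPS2 make phosphoribosyl pyrophosphate (PRPP), the starting material for nucleotides. In human cancer cells several of these genes, TKT and PGD among them, are known targets of the transcription factor NRF2.

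Each of the 8 groups held 3 libraries, made from triplicate wells of 1 established human cell line collected 48 hours after transfection. The siGCDH and siControl groups of A375, a melanoma line, came in batch 1, made with a kit that reads the 3' ends of polyadenylated RNA, and in batch 2, made from full-length poly(A) RNA. The siGCDH and siControl groups of SK-Hep1, labelled as liver cancer, and of SKBR3, labelled as breast cancer, were made with the same full-length kit as A375 batch 2. No siRNA sequence was given in the sources used here. The labels do not say whether each siRNA was a single sequence or a pool. Wells were the replicates, so the p-values measure the spread between wells, which may be technical. TPM keeps no read totals, so the depth behind each value is unknown. In bulk RNA, fewer cells of a type and less RNA per cell cannot be told apart.

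GCDH RNA averaged lower with siGCDH in every pair of groups. GCDH averaged 3.72 ± 0.269 TPM with siGCDH and 20.9 ± 1.71 TPM with siControl in A375 batch 2 (SD, n = 3 each), and 17.8%, 29.3% and 26.4% of the siControl mean remained in A375 batch 2, SK-Hep1 and the libraries labelled SKBR3. GCDH in A375 batch 1 averaged 0.917 ± 0.595 TPM with siGCDH and 4.41 ± 2.48 TPM with siControl, and the difference did not pass (limma, log2 difference -1.42, Benjamini-Hochberg adjusted p = 0.118). Of 7 melanocyte lineage markers, SOX10 stood at 530 ± 28.9 TPM with siGCDH and 457 ± 14.5 TPM with siControl in A375 batch 2, whereas TYR, PMEL, MLANA and DCT each averaged under 1 TPM in both groups. S100B stood at 50.8 ± 3.1 TPM with siGCDH and 114 ± 2.99 TPM with siControl there, and MITF at 22.1 ± 2.4 TPM with siGCDH and 11.6 ± 0.512 TPM with siControl. In SK-Hep1, 5 of 7 hepatocyte markers (ALB, APOA1, APOB, TTR and TF) were at 0 in both groups, and the summed hepatocyte list ran from 36.1 to 37.6 TPM with siGCDH and from 8.81 to 11.6 TPM with siControl. Most hepatocyte markers thus do not bear out the liver label. The 5 endothelial markers there summed to 0.08 to 0.17 TPM with siGCDH and 0.09 to 0.19 TPM with siControl. A list of 8 breast epithelial and ERBB2-region markers summed there to 3384 to 3512 TPM with siGCDH and 6251 to 6513 TPM with siControl. The libraries labelled SKBR3, a breast line known for an amplified ERBB2 gene, had 41.6 ± 3.25 TPM of ERBB2 with siGCDH and 25.5 ± 2.23 TPM with siControl, against 63.8 TPM with siGCDH and 46.4 TPM with siControl in SK-Hep1. KRT19 in the libraries labelled SKBR3 averaged 0.12 TPM with siGCDH and 0.227 TPM with siControl, against 1275 TPM with siGCDH and 1262 TPM with siControl in SK-Hep1, so both genes go against the SKBR3 label. In A375 batch 1 the rows of the ribosomal RNA region of chromosome 21 took 33 ± 1.65% of all TPM with siGCDH and 17.1 ± 2.08% with siControl, against under 0.1% in every other group. The part of these shifts in the results below was not tested except where values without those rows are given.

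TKT and PRPS1 are shown first as sequence, because their 3' untranslated regions are the only ones among the 8 genes to hold the 7-mer ACTGAGA. That 7-mer came out of an earlier analysis of the A375 batch 2 fold changes of these same libraries, so its presence in genes that fell there is not independent of those values. The longest annotated 3' untranslated region of each gene in GENCODE 29 was searched on the transcript strand, and 13.1% of 18779 genes (2465 genes) held the 7-mer. The windows are written 5' to 3' with the 7-mer in capitals, as DNA on GRCh38. The TKT window lies at chr3:53225670-53225698 on the minus strand, with the 7-mer starting at base 69 of a 1049-base region. The PRPS1 window lies at chrX:107650939-107650967 on the plus strand, with the 7-mer at base 918 of 994. AHCY and DIMT1, shown beside them, are genes whose pattern across libraries was among the most like that of TKT, and DIMT1 holds the 7-mer at 2 places.
TKT: ctcaaagatgtACTGAGAggaggggtaaa
PRPS1: ctctcaaatgaACTGAGAttcctgttaaa
AHCY: gttaaggggcaACTGAGAaagaacagaga
DIMT1, near: gcttttgctttACTGAGAcattatttact
DIMT1, far: aaaactgtcagACTGAGAatttcaataga

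Over all tested genes with such a region, the median log2 difference was -0.12 among genes holding the 7-mer and 0.029 among the others in A375 batch 2. The same medians were 0.16 and 0.15 in SK-Hep1, 0.21 and 0.23 in the libraries labelled SKBR3, and -0.25 and -0.21 in A375 batch 1. Their part in the TKT and PRPS1 results was not tested.

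Promoters were searched as well, because NRF2 binds the antioxidant response element, whose core is written here as TGACNNNGC. In RefSeq windows from 250 bases before to 50 bases after the gene start (GRCh38.p14), searched on both strands, 13.6% of 27305 promoters held the core. All 8 genes were matched and 2 of 8 held it, PGD and RPE. In the windows below, on the plus strand with the match in capitals, the match in PGD (chr1:10398853-10398881) reads on the minus strand and that in RPE (chr2:210002477-210002505) on the plus strand. The RefSeq start is not always the gene start given further below. For PGD the searched window, chr1:10398814-10399113, lies wholly inside the gene as placed there (chr1:10398592-10420144). A match is a run of letters and not a measured site, and the TKT window held none.
PGD: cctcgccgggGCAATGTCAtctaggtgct
RPE: ggcggacggcTGACAGCGCcccaccccag

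TKT, at chr3:53224707-53256052 on the minus strand (GRCh38, ENSG00000163931), encodes transketolase, the thiamine diphosphate enzyme that moves carbon units between sugar phosphates. It was the most abundant of the 8 per transcript length in every full-length siControl group. In A375 batch 2 it stood at 205, 192 and 194 TPM with siGCDH, against 931, 926 and 891 TPM with siControl. In SK-Hep1 it stood at 481, 499.7 and 467 TPM with siGCDH, against 926, 971 and 876 TPM with siControl. The libraries labelled SKBR3 held 305, 286 and 303 TPM with siGCDH, against 470.4, 444 and 454 TPM with siControl. All 3 siGCDH libraries lay below all 3 siControl libraries in each line, and the gap was widest in A375.

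TKT fell in all 3 lines. On the log2(TPM + 1) scale, which understates changes of genes with low TPM, the difference was -2.21 (SE 0.04, adjusted p = 1.18e-07) in A375 batch 2, leaving 21.5% of the siControl mean. The difference was -0.94 (SE 0.05, adjusted p = 4.24e-06) in SK-Hep1, where 52.2% remained. It was -0.61 (SE 0.04, adjusted p = 1.97e-05) in the libraries labelled SKBR3, where 65.3% remained. A375 batch 1 gave the fall a second time with the other kit, with 20.1, 18.4 and 16.1 TPM with siGCDH, against 77.9, 66.9 and 82.2 TPM with siControl (log2 difference -2.00, SE 0.16, adjusted p = 0.00196). Without the chromosome 21 rows the batch 1 difference was -1.71 (adjusted p = 0.00383).

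**Figure D1:**
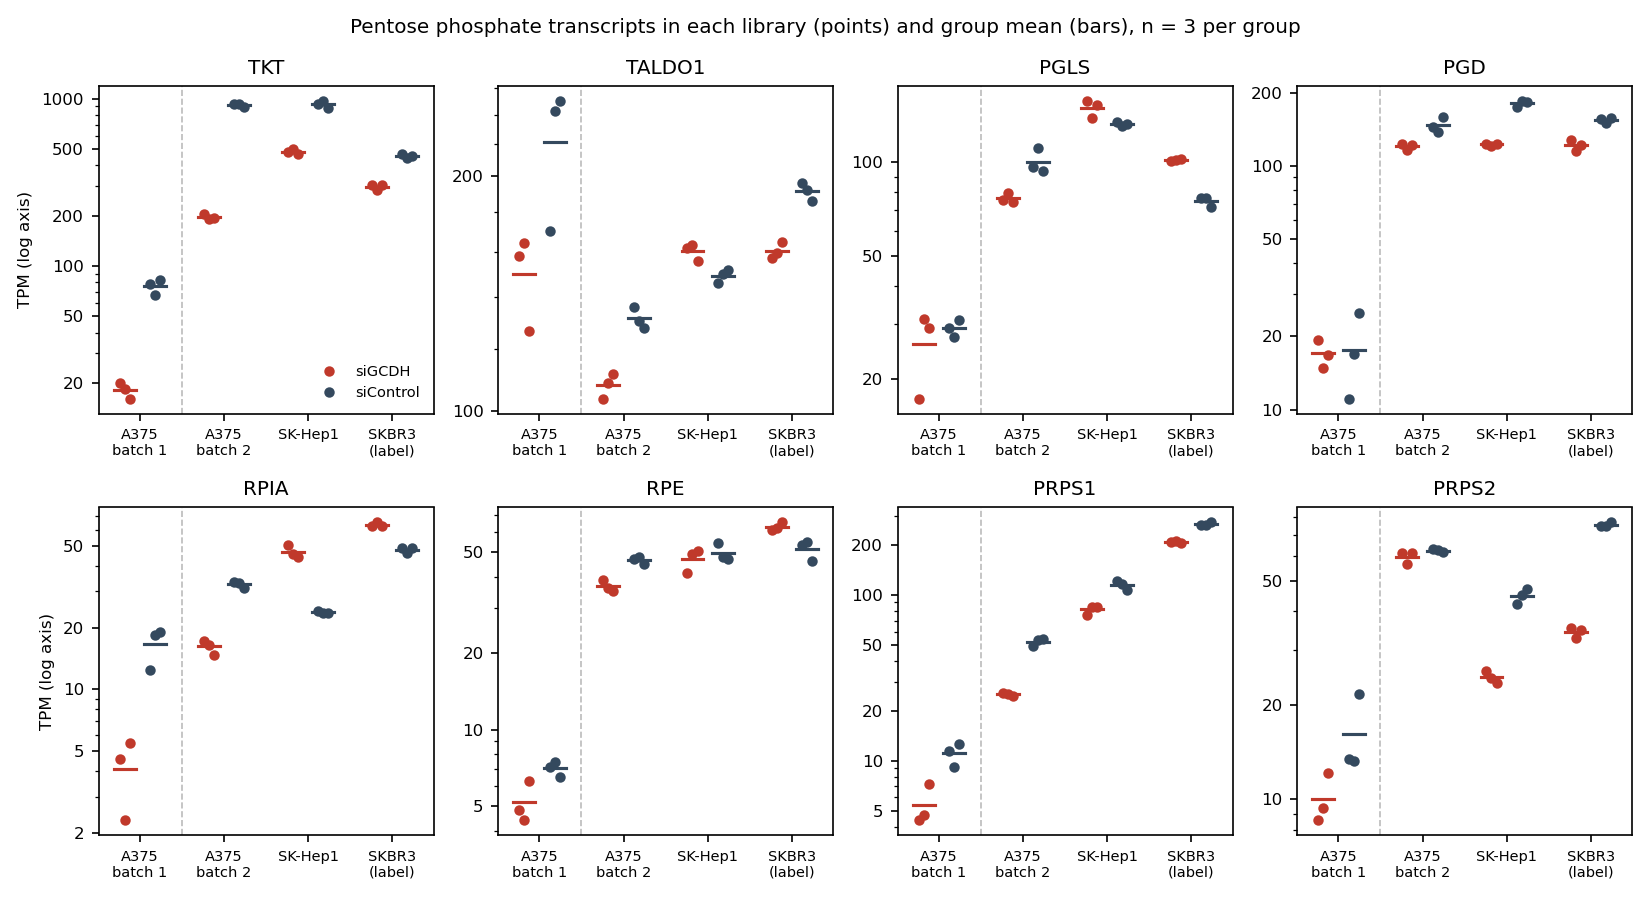
TPM of the 8 genes in each library, with siGCDH left of siControl in each line and batch; points are libraries, horizontal bars are means of 3 and the axes are logarithmic. TKT lies lower with siGCDH in all 4 pairs, whereas RPIA lies lower in A375 and higher in SK-Hep1 and in the libraries labelled SKBR3.

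The size of the TKT fall differed between lines. The effect in A375 batch 2 minus that in SK-Hep1 was -1.28 (SE 0.06, adjusted p = 4.79e-08), and minus that in the libraries labelled SKBR3 it was -1.60 (SE 0.05, adjusted p = 4.65e-09). The effect in SK-Hep1 minus that in the libraries labelled SKBR3 was -0.32 (SE 0.06, adjusted p = 0.00201). The effects in A375 batch 2 and batch 1 differed by -0.22, which did not pass (adjusted p = 0.418), but under quantile normalization the difference was -0.84 and passed (adjusted p = 0.0134). After median scaling the effect in SK-Hep1 minus that in the libraries labelled SKBR3 was -0.20 (adjusted p = 0.032). The 3 line contrasts share groups with each other. The GCDH effect itself differed between A375 batch 2 and SK-Hep1 (-0.74, adjusted p = 0.00239), and its difference did not pass for A375 batch 2 minus the libraries labelled SKBR3 (-0.43, adjusted p = 0.076) or for SK-Hep1 minus those libraries (0.30, adjusted p = 0.262). The part of the GCDH level in the TKT differences was not tested.

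In the siControl wells the TKT levels had an order as well. The siControl level in A375 batch 2 did not differ from that in SK-Hep1 beyond the spread (916 ± 21.8 TPM in A375 batch 2 and 924 ± 47.5 TPM in SK-Hep1, log2 difference -0.012, adjusted p = 0.817), and this difference changed sign with the scaling of the libraries. Both lay above the 456 ± 13.3 TPM of the libraries labelled SKBR3, by 1.00 (adjusted p = 3.01e-08) and 1.02 (adjusted p = 2.23e-08) on the log2 scale. With siGCDH the order was SK-Hep1, at 483 ± 16.2 TPM, then the libraries labelled SKBR3, at 298 ± 10.7 TPM, then A375 batch 2, at 197 ± 6.69 TPM. This second order was not tested.

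RPIA, at chr2:88691644-88750935, encodes ribose 5-phosphate isomerase, which turns ribulose 5-phosphate into ribose 5-phosphate, the substrate of the PRPS enzymes. In A375 batch 2 it stood at 17.3, 16.5 and 14.8 TPM with siGCDH, against 33.5, 33.0 and 31.0 TPM with siControl. In SK-Hep1 it stood at 50.3, 45.55 and 44.0 TPM with siGCDH, against 24.04, 23.5 and 23.53 TPM with siControl. The libraries labelled SKBR3 held 62.6, 65.0 and 62.2 TPM of it with siGCDH, against 48.8, 46.15 and 48.6 TPM with siControl. No pair of groups overlapped, and the siGCDH libraries were the lower ones in A375 and the higher ones in the other lines.

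RPIA fell in A375 batch 2 by 0.97 on the log2 scale (SE 0.08, adjusted p = 0.000148) and rose in SK-Hep1 by 0.94 (SE 0.07, adjusted p = 2.59e-05). It rose by 0.40 in the libraries labelled SKBR3 (SE 0.05, adjusted p = 0.000407), and by 0.17 after the libraries were scaled to their medians (adjusted p = 0.0281). In A375 batch 1 it fell as well, with 4.57, 2.31 and 5.46 TPM with siGCDH, against 12.4, 18.5 and 18.96 TPM with siControl (log2 difference -1.82, SE 0.32, adjusted p = 0.0173). That call was lost without siControl replicate 2 (adjusted p = 0.0659) or replicate 3 (adjusted p = 0.0686), and it stayed past the threshold without the chromosome 21 rows (-1.60, adjusted p = 0.0438). The effect in A375 batch 2 minus that in SK-Hep1 was -1.91 (SE 0.10, adjusted p = 1.01e-07), the largest in size among the 8 genes in that contrast.

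RPE, at chr2:210002565-210022259, encodes ribulose 5-phosphate epimerase, which makes the xylulose 5-phosphate that transketolase uses. It averaged 36.7 ± 1.95 TPM with siGCDH and 46.6 ± 1.4 TPM with siControl in A375 batch 2, where it fell by 0.33 (adjusted p = 0.0055). In SK-Hep1 it averaged 47 ± 4.78 TPM with siGCDH and 49.6 ± 3.98 TPM with siControl, and the groups overlapped (adjusted p = 0.498, 95% interval of the log2 difference -0.29 to 0.14). It averaged 62.8 ± 2.29 TPM with siGCDH and 51.2 ± 4.54 TPM with siControl in the libraries labelled SKBR3, a rise of 0.29 (adjusted p = 0.0104) that did not pass after median scaling (0.064, adjusted p = 0.484). Its siControl levels in the 3 full-length groups gave log2 differences of -0.085 (A375 batch 2 minus SK-Hep1), -0.13 (A375 batch 2 minus the libraries labelled SKBR3) and -0.046 (SK-Hep1 minus those libraries), and none passed the threshold. For A375 batch 2 minus SK-Hep1 the difference passed after median scaling (-0.26, adjusted p = 0.012) and quantile normalization (-0.28, adjusted p = 0.0096). For A375 batch 2 minus the libraries labelled SKBR3 it passed under quantile normalization (-0.21, adjusted p = 0.0366) and without siControl replicate 3 of those libraries (adjusted p = 0.0302).

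TALDO1, at chr11:747329-765024, encodes transaldolase, which works beside transketolase in the same branch. In A375 batch 2 it stood at 104, 109 and 112 TPM with siGCDH, against 136, 131 and 128 TPM with siControl. It fell there by 0.28 (SE 0.05, adjusted p = 0.00364), and the groups did not overlap. In SK-Hep1 it averaged 160 ± 4.14 TPM with siGCDH and 149 ± 2.92 TPM with siControl, a difference of 0.10 that did not pass (adjusted p = 0.0777) and was -0.011 after median scaling. It averaged 160 ± 3.74 TPM with siGCDH and 191 ± 5.22 TPM with siControl in the libraries labelled SKBR3, where it fell by 0.25 on the log2 scale (adjusted p = 0.00107), and by 0.48 after median scaling (adjusted p = 5.97e-05).

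PGLS, at chr19:17511629-17521288, encodes 6-phosphogluconolactonase, which opens the lactone formed in the oxidative branch. It averaged 76.7 ± 2.77 TPM with siGCDH and 101 ± 9.23 TPM with siControl in A375 batch 2, where it fell by 0.38 (adjusted p = 0.00544). The libraries labelled SKBR3 held 101, 102 and 102 TPM of it with siGCDH, against 77.0, 76.9 and 71.7 TPM with siControl, and rose by 0.43 (SE 0.05, adjusted p = 0.000182). After median scaling that rise was 0.20 (adjusted p = 0.00791). In SK-Hep1 it averaged 150 ± 9.96 TPM with siGCDH and 133 ± 1.97 TPM with siControl, a difference of 0.17 just past the threshold (adjusted p = 0.036) that did not pass after median scaling (0.055, adjusted p = 0.49). It also missed the threshold when any library other than siGCDH replicate 2 was left out (highest adjusted p = 0.102).

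PGD, at chr1:10398592-10420144, encodes 6-phosphogluconate dehydrogenase, the NADPH-forming step that releases ribulose 5-phosphate. In SK-Hep1 it stood at 124, 121 and 123 TPM with siGCDH, against 175, 185 and 183 TPM with siControl. It fell by 0.56 (SE 0.04, adjusted p = 3.39e-05), and the groups did not overlap. It averaged 121 ± 3.8 TPM with siGCDH and 147 ± 11.1 TPM with siControl in A375 batch 2 and fell there by 0.28 (adjusted p = 0.0104). It averaged 122 ± 6.29 TPM with siGCDH and 155 ± 3.72 TPM with siControl in the libraries labelled SKBR3 and fell there by 0.34 (adjusted p = 0.000758), and by 0.57 after median scaling (adjusted p = 6.07e-05). PGD fell in all 3 full-length lines, and its 3 siGCDH means lay between 121 and 123 TPM.

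PRPS1 and PRPS2, at chrX:107628424-107651026 and chrX:12791355-12824222, encode the isozymes of PRPP synthetase. In A375 batch 2 PRPS1 stood at 25.5, 25.15 and 24.6 TPM with siGCDH, against 48.8, 53.6 and 53.8 TPM with siControl. PRPS2 stood at 61.1, 56.6 and 61.5 TPM with siGCDH, against 63.1, 62.45 and 61.5 TPM with siControl. PRPS1 fell by 1.02 (SE 0.06, adjusted p = 4.41e-05), whereas PRPS2 differed by -0.062 (adjusted p = 0.412, 95% interval -0.19 to 0.062).

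In the other lines PRPS2 was the isozyme with the larger log2 difference. In the libraries labelled SKBR3 PRPS2 stood at 35.3, 32.8 and 34.9 TPM with siGCDH, against 74.8, 74.7 and 76.8 TPM with siControl, a log2 difference of -1.11 (SE 0.05, adjusted p = 5.43e-06). PRPS1 there averaged 208 ± 2.62 TPM with siGCDH and 267 ± 5.22 TPM with siControl, a log2 difference of -0.36 (adjusted p = 0.000102), or -0.59 after median scaling (adjusted p = 1.39e-05). In SK-Hep1 the log2 differences were -0.84 for PRPS2 (24.6 ± 1.05 TPM with siGCDH and 44.7 ± 2.52 TPM with siControl, adjusted p = 4.68e-05) and -0.49 for PRPS1 (81.8 ± 5.25 TPM with siGCDH and 115 ± 7.35 TPM with siControl, adjusted p = 0.000678). Both isozymes fell in these lines, and the groups did not overlap.

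The balance between the isozymes therefore moved in different directions. The ratio of PRPS1 to PRPS2 TPM was 0.417, 0.444 and 0.401 with siGCDH, against 0.774, 0.858 and 0.874 with siControl in A375 batch 2. It was 5.91, 6.43 and 5.89 with siGCDH, against 3.53, 3.54 and 3.56 with siControl in the libraries labelled SKBR3. It was 2.95, 3.48 and 3.59 with siGCDH, against 2.9, 2.57 and 2.28 with siControl in SK-Hep1. The siGCDH ratios lay below all siControl ratios in A375 batch 2 and above them in the other 2 lines, with the SK-Hep1 groups nearly touching. In A375 batch 1 the ratios overlapped, at 0.51, 0.504 and 0.591 with siGCDH, against 0.842, 0.695 and 0.579 with siControl. The ratio itself was not tested, but the effect in A375 batch 2 minus that in the libraries labelled SKBR3 was 1.05 for PRPS2 (adjusted p = 4.62e-07) and -0.67 for PRPS1 (adjusted p = 6.44e-06).

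**Figure D2:**
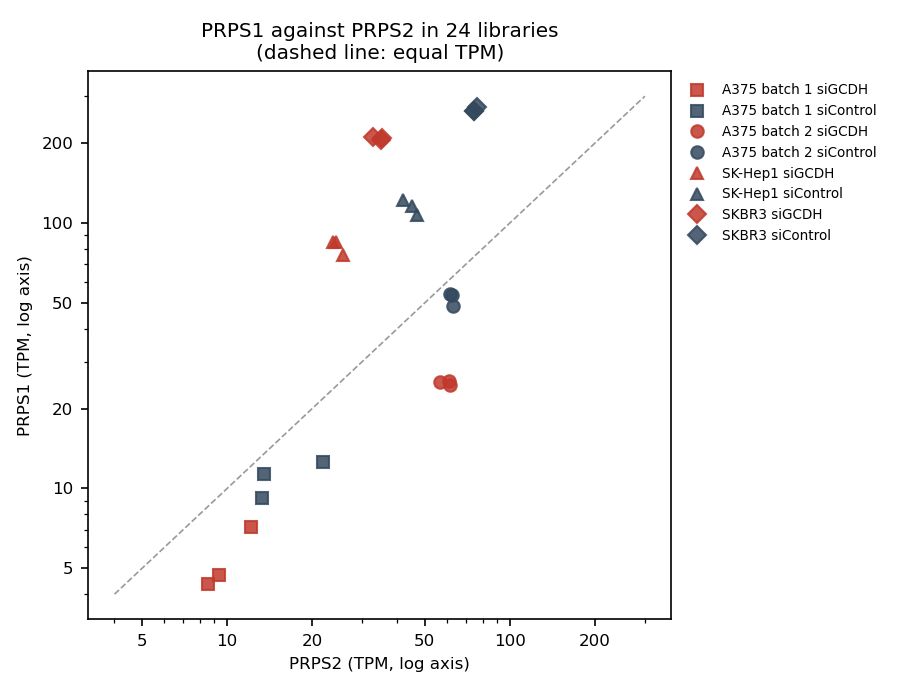
PRPS1 TPM against PRPS2 TPM in the 24 libraries, both on logarithmic axes; each point is a library, red for siGCDH and dark for siControl, the symbol gives the line and batch, and the dashed line marks equal TPM. In A375 batch 2 the siGCDH points lie below the siControl points along the PRPS1 axis (25.1 ± 0.429 against 52.1 ± 2.82 TPM), whereas in the libraries labelled SKBR3 they lie to the left along the PRPS2 axis (34.4 ± 1.36 against 75.4 ± 1.2 TPM).

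Counted together, 7 of the 8 genes fell and 0 rose in A375 batch 2, where 15.7% of all 15185 tested genes were called lower and 17.9% higher. At an unadjusted p under 0.05, 7 were lower and 0 higher by limma, a count without a share of all tested genes beside it. All 8 had siGCDH libraries wholly below siControl libraries, against 22.8% of all tested genes, and 0 lay wholly above, against 25.6%. For PRPS2 the groups nearly touched, at 61.49 TPM in the highest siGCDH library and 61.54 TPM in the lowest siControl library. The median log2 difference of the 8 was -0.36, beside 0.024 for all tested genes.

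In SK-Hep1, 4 of the 8 genes fell (TKT, PGD, PRPS1 and PRPS2) and 2 rose (RPIA and PGLS), where 18.2% of 14557 tested genes were called lower and 37.3% higher. The groups did not overlap for 4 genes that were lower and 3 that were higher, beside 21% and 42.1% of all tested genes. The median log2 difference was -0.28 for the 8 genes and 0.18 for all tested genes. After median scaling the calls over all genes were 4250 higher and 3312 lower, against 5432 and 2644 without it.

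In the libraries labelled SKBR3, 5 of the 8 genes fell (TKT, TALDO1, PGD, PRPS1 and PRPS2) and 3 rose (PGLS, RPIA and RPE), where 14.7% of 16494 tested genes were called lower and 47.3% higher. The groups did not overlap for any of the 8, with 5 lower and 3 higher, beside 16.8% and 51.3% of all tested genes. The median log2 difference was -0.30 for the 8 genes and 0.29 for all tested genes. After median scaling the calls over all genes were 5130 higher and 4088 lower, against 7805 and 2431 without it.

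A375 batch 1 was noisier, and 2 of the 8 genes fell (TKT and RPIA) and 0 rose, where 6.73% of 12868 tested genes were called lower and 1.18% higher. At an unadjusted p under 0.05, 5 were lower and 0 higher by limma. No share of all tested genes at that threshold was taken, so this count cannot be set against one. Groups did not overlap for 6 genes, all lower, beside 23.5% of all tested genes, and for 0 genes that were higher, beside 7.34%. The median log2 difference was -0.58 for the 8 genes and -0.20 for all tested genes, and the scaling mattered: 200 genes were called higher and 306 lower after median scaling, against 152 and 866 without it. PRPS1, at 4.38, 4.73 and 7.19 TPM with siGCDH, against 11.4, 9.22 and 12.6 TPM with siControl, did not overlap but missed the threshold (log2 difference -0.92, adjusted p = 0.0701). TALDO1 also missed it (-0.55, adjusted p = 0.106), and passed without siControl replicate 1 (adjusted p = 0.0468). PRPS2 (-0.62, adjusted p = 0.189), RPE (-0.39, adjusted p = 0.35), PGLS (-0.20, adjusted p = 0.645) and PGD (0.012, adjusted p = 0.985) did not pass. Without the chromosome 21 rows PRPS1 was -0.67, PRPS2 -0.34, TALDO1 -0.24, RPE -0.13, PGLS 0.092 and PGD 0.31, and none of them passed.

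**Figure D3:**
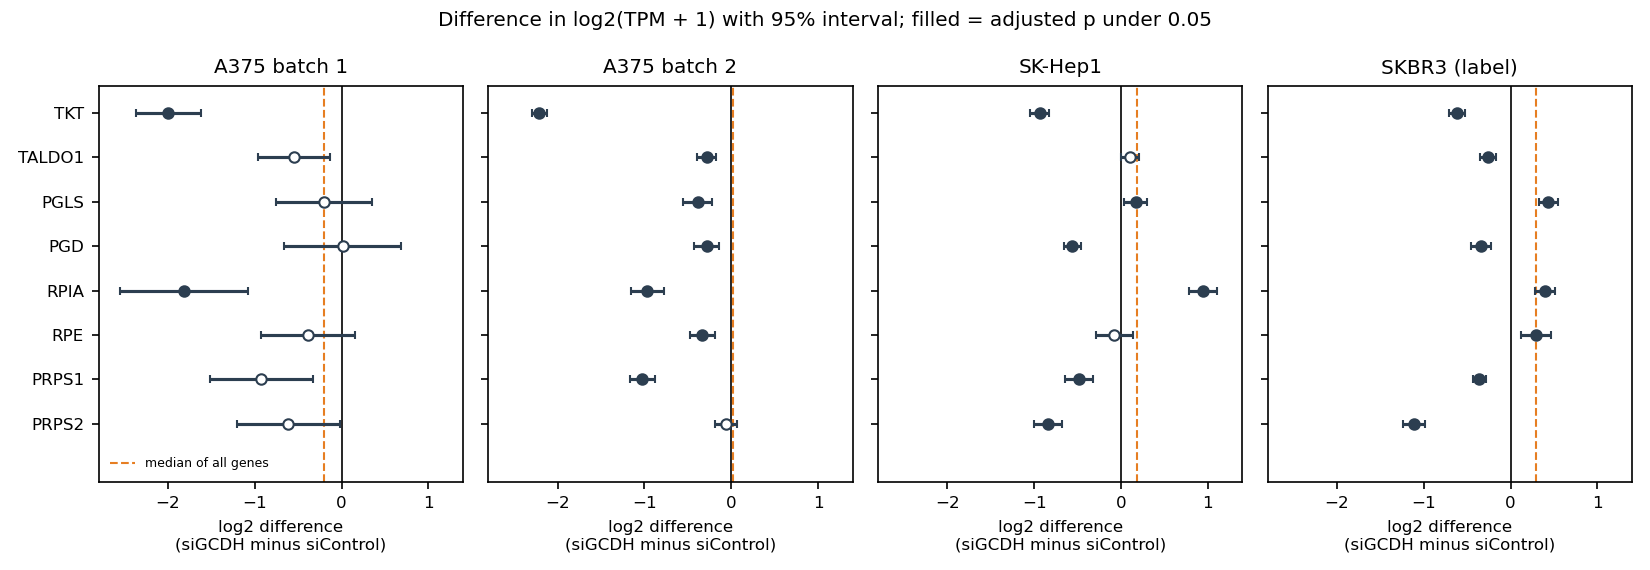
Log2 difference of siGCDH minus siControl for the 8 genes in each line and batch, with 95% intervals; filled points passed an adjusted p of 0.05, open points did not, and the vertical line marks the median of all tested genes. TKT has the lowest value in both A375 batches and in SK-Hep1 and lies second to PRPS2 in the libraries labelled SKBR3.

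Tested directly, the knockdown effect differed between A375 batch 2 and SK-Hep1 for 7 of the 8 genes, where 46.2% of all tested genes differed. RPE was the exception (-0.26, adjusted p = 0.0869), and it passed without SK-Hep1 siGCDH replicate 1 (-0.34, adjusted p = 0.0159) or siControl replicate 1 (-0.32, adjusted p = 0.0402). Between A375 batch 2 and the libraries labelled SKBR3 it differed for 6 of 8, where 51.4% of all tested genes did, and not for PGD (0.057, adjusted p = 0.579, 95% interval -0.12 to 0.23) or TALDO1 (-0.027, adjusted p = 0.716, 95% interval -0.15 to 0.098). After median scaling both passed, PGD at 0.28 (adjusted p = 0.0167) and TALDO1, with its sign turned, at 0.19 (adjusted p = 0.0221). Between SK-Hep1 and the libraries labelled SKBR3 it differed for 7 of 8, beside 39.5% of all tested genes, and not for PRPS1 (-0.13, adjusted p = 0.215), which passed under quantile normalization (-0.28, adjusted p = 0.00803). After median scaling 4 of those 7 still passed, with PGLS (-0.15, adjusted p = 0.174), PGD (-0.10, adjusted p = 0.232) and RPE (-0.25, adjusted p = 0.106) lost, and PRPS2 was lost under the replicate block (adjusted p = 0.0557). RPE (-0.37, adjusted p = 0.0351) also missed the threshold without replicate 1 of either SK-Hep1 group, siControl replicate 3 of the libraries labelled SKBR3 or their siGCDH replicate 2 or 3 (adjusted p up to 0.0805). Between the A375 batches it differed for 0 of 8 by limma, beside 5.23% of all tested genes, with 1 of 8 (RPIA, 0.85, adjusted p = 0.178) at an unadjusted p under 0.05. Kit and batch cannot be told apart there.

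Without knockdown the lines already differed in these genes, though so did most genes. The siControl levels of A375 batch 2 and SK-Hep1 differed for 6 of the 8, beside 73.5% of all tested genes. Those of A375 batch 2 and the libraries labelled SKBR3 differed for 6, beside 74.6%, and those of SK-Hep1 and the libraries labelled SKBR3 for 7, beside 77.4%. PRPS1 had the widest spread, with a siControl log2 difference of -2.34 for A375 batch 2 minus the libraries labelled SKBR3 and of -1.13 for A375 batch 2 minus SK-Hep1. RPIA was lowest in SK-Hep1, at 23.7 ± 0.303 TPM, then 32.5 ± 1.29 TPM in A375 batch 2 and 47.8 ± 1.46 TPM in the libraries labelled SKBR3, and each neighbouring pair in that order differed. PRPS2 was also lowest in SK-Hep1, with a difference of 0.47 for A375 batch 2 minus SK-Hep1, or 0.30 after median scaling. PGD in A375 batch 2 minus the libraries labelled SKBR3 missed the threshold with all libraries and passed without A375 batch 2 siControl replicate 3 (-0.13, adjusted p = 0.0303).

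Summed over the 8 genes, TPM stood at 640 ± 9.43 with siGCDH and 1489 ± 22 with siControl in A375 batch 2. The sum was 1116 ± 12.2 with siGCDH and 1621 ± 50.7 with siControl in SK-Hep1, and 1051 ± 15.2 with siGCDH and 1319 ± 19.2 with siControl in the libraries labelled SKBR3. TKT alone made up 30.8 ± 0.611% of the sum with siGCDH and 61.5 ± 0.578% with siControl in A375 batch 2. Its share was 43.3 ± 1% with siGCDH and 57 ± 1.15% with siControl in SK-Hep1, and 28.3 ± 0.616% with siGCDH and 34.6 ± 0.506% with siControl in the libraries labelled SKBR3. The other 7 genes together averaged 443 TPM with siGCDH and 573 TPM with siControl in A375 batch 2, 633 TPM with siGCDH and 696 TPM with siControl in SK-Hep1, and 753 TPM with siGCDH and 863 TPM with siControl in the libraries labelled SKBR3. The sum lay lower with siGCDH in every library of the 3 lines, and TKT made up the larger part of the difference in each.

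**Figure D4:**
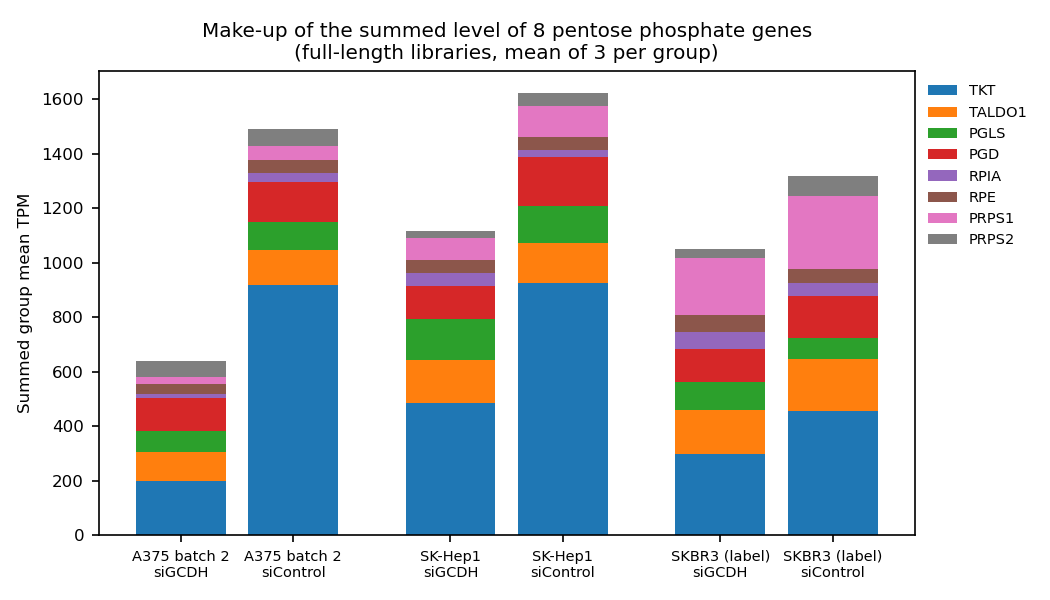
Summed TPM of the 8 genes by gene in the 3 full-length lines, siGCDH left of siControl; each bar stacks the group means of 3 libraries in TPM. The TKT segment is shorter with siGCDH in each line, and the gap is widest in A375 batch 2 (197 against 916 TPM).

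Across the 18 full-length libraries, centred within each line, the genes most like TKT among 11848 genes were KLHDC3 (Pearson r = 0.990), AHCY (r = 0.988), PRPS1 (r = 0.986), DIMT1 (r = 0.980) and KLF9 (r = 0.980). These values describe libraries that share the siGCDH and siControl split, so they mostly follow the size of that difference in each line. AHCY encodes S-adenosylhomocysteine hydrolase and had log2 differences of -1.80, -0.49 and -0.54 in A375 batch 2, SK-Hep1 and the libraries labelled SKBR3. KLHDC3, a substrate receptor of a ubiquitin ligase, had -1.28, -0.56 and -0.49, and DIMT1, a ribosomal RNA methyltransferase, had -0.79, -0.30 and -0.24. KLF9 had -0.74, -0.38 and -0.30, but in SK-Hep1 its level was low, at 1.51 ± 0.05 TPM with siGCDH and 2.27 ± 0.107 TPM with siControl. Of these 5 genes, 3 held the 7-mer shown above (AHCY, PRPS1 and DIMT1), beside 14.4% of the genes tested in A375 batch 2. The 7-mer came from the A375 batch 2 fold changes, which also enter the likeness to TKT, so the count is not independent of how the 7-mer was found. Among the other pathway genes the likeness to TKT was 0.75 for PGD, 0.67 for TALDO1, 0.49 for RPE, 0.46 for PRPS2, 0.29 for RPIA and 0.27 for PGLS.

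Among further genes of pentose and ribose phosphate metabolism, 1 fell in each full-length line, a share close to the 15.7%, 18.2% and 14.7% of all tested genes called lower in A375 batch 2, SK-Hep1 and the libraries labelled SKBR3. In A375 batch 2, 1 of 6 fell and 0 rose (1 of 6 was higher at an unadjusted p under 0.05 by limma), the fall being that of H6PD, which starts the oxidative branch inside the endoplasmic reticulum (-0.47, adjusted p = 0.0121). H6PD differed by 0.034 in SK-Hep1 (adjusted p = 0.821) and rose by 0.37 in the libraries labelled SKBR3 (adjusted p = 0.0162). That rise did not pass after median scaling (0.17, adjusted p = 0.199). In SK-Hep1, 4 of 7 rose and 1 fell, beside 37.3% of all tested genes called higher, and their median was 0.41. PRPSAP1 and PRPSAP2, which bind the PRPS enzymes and are known to restrain them, rose there by 0.41 each (adjusted p = 0.000627 and 0.00115), and RBKS, which phosphorylates ribose, rose by 0.86 (adjusted p = 0.00129). DERA also rose there, by 0.52 (adjusted p = 0.00114), and SHPK was the gene that fell (-0.44, adjusted p = 0.00892). Of 8 genes tested in the libraries labelled SKBR3, 4 rose and 1 fell, beside 47.3% of all tested genes called higher, the rises including PRPSAP1 (0.43, adjusted p = 0.000273) and RBKS (0.96, adjusted p = 0.00777, but adjusted p = 0.207 after quantile normalization). DERA rose there by 0.29 (adjusted p = 0.00502, but adjusted p = 0.418 after median scaling), and PGM2 was the gene that fell (-0.25, adjusted p = 0.0497). After median scaling 2 rose and 2 fell there, and the list median was 0.11 instead of 0.33. All tested genes had 5130 calls higher and 4088 lower in those libraries after that scaling. After quantile normalization 1 rose and 2 fell. None of 5 passed in A375 batch 1, where 0 were also past an unadjusted p under 0.05 by limma.

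Genes that use PRPP or make nucleotides had more calls lower than higher in each full-length line, also after median scaling and quantile normalization. Of those tested, 6 of 21 fell and 2 rose in A375 batch 2, 11 of 22 fell and 4 rose in SK-Hep1, and 12 of 22 fell and 5 rose in the libraries labelled SKBR3. Of all tested genes, 15.7% were called lower and 17.9% higher in A375 batch 2, 18.2% lower and 37.3% higher in SK-Hep1, and 14.7% lower and 47.3% higher in the libraries labelled SKBR3. The list itself was not tested. Their median log2 differences were -0.002, -0.20 and -0.16, beside 0.024, 0.18 and 0.29 for all tested genes. GMPS, which makes GMP, fell by 1.25 in A375 batch 2 (70.5 ± 6.69 TPM with siGCDH and 169 ± 3.19 TPM with siControl, adjusted p = 3.14e-05), and ATIC, which closes the purine ring, fell by 0.65 (adjusted p = 0.000816). GART, an earlier purine enzyme, fell by 0.93 (adjusted p = 0.000221) and IMPDH2, the step to xanthosine monophosphate, by 0.91 (adjusted p = 1.47e-06) in SK-Hep1. In the libraries labelled SKBR3, PFAS, another purine enzyme, fell by 0.78 (adjusted p = 0.00131), whereas ADSS1, an adenylosuccinate synthase, rose by 1.01 (adjusted p = 0.00756, but adjusted p = 0.114 after quantile normalization). Of 21 tested in A375 batch 1, 5 fell, among them GMPS (-0.98, adjusted p = 0.021, but adjusted p = 0.0676 after median scaling) and ATIC (-0.95, adjusted p = 0.0114), and 0 rose, also at an unadjusted p under 0.05 by limma. All tested genes leaned the same way there, with 6.73% called lower and 1.18% higher.

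A list of other enzymes tied to NADPH, not all of which form it themselves, was called in both directions. The counts were 5 of 13 lower and 3 higher in A375 batch 2, 6 of 12 lower and 3 higher in SK-Hep1, and 6 of 12 lower and 3 higher in the libraries labelled SKBR3. The last of these counts depended on the scaling, with 9 lower and 1 higher after median scaling and 7 lower and 1 higher after quantile normalization, and in SK-Hep1 both scalings gave 7 lower and 2 higher. After median scaling all tested genes had 4088 calls lower and 5130 higher in the libraries labelled SKBR3, and 3312 lower and 4250 higher in SK-Hep1. The unscaled shares below do not apply to the scaled counts. Without scaling, 15.7% of all tested genes were called lower and 17.9% higher in A375 batch 2. These shares were 18.2% and 37.3% in SK-Hep1, 14.7% and 47.3% in the libraries labelled SKBR3, and 6.73% and 1.18% in A375 batch 1. This list was not tested as a whole. MTHFD2, a mitochondrial folate enzyme, rose by 0.64 in A375 batch 2 (249 ± 5.08 TPM with siGCDH and 160 ± 3.78 TPM with siControl, adjusted p = 3.58e-05). ME1, the cytosolic malic enzyme, fell by 1.77 in SK-Hep1 (5.34 ± 0.435 TPM with siGCDH and 20.7 ± 1.13 TPM with siControl, adjusted p = 5.64e-06) and by 0.91 in the libraries labelled SKBR3 (adjusted p = 8.32e-05). Of 12 tested in A375 batch 1, 0 passed by limma, and 2 were lower at an unadjusted p under 0.05. MTHFD2L, related to MTHFD2, rose by 0.94 in the libraries labelled SKBR3 (adjusted p = 0.000707), and NNT, the mitochondrial transhydrogenase, fell by 0.90 in SK-Hep1 (adjusted p = 0.00039).

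Glycolytic genes that share sugar phosphates with the pathway fell for 5 of 11 and rose for 2 in A375 batch 2, and rose for 6 and fell for 2 of 11 in SK-Hep1 and again in the libraries labelled SKBR3. After median scaling the last of these counts became 2 higher and 4 lower, so the direction of this list there depends on the scaling. All tested genes had 5130 calls higher and 4088 lower in those libraries after that scaling. Without scaling, 15.7% of all tested genes were called lower and 17.9% higher in A375 batch 2. These shares were 18.2% and 37.3% in SK-Hep1, 14.7% and 47.3% in the libraries labelled SKBR3, and 6.73% and 1.18% in A375 batch 1. In SK-Hep1 and the libraries labelled SKBR3 all tested genes thus also leaned higher, and the list was not tested as a whole. TIGAR, a phosphatase known to divert sugar phosphates into the pentose phosphate pathway, rose by 0.52 in A375 batch 2 (adjusted p = 0.00365) and by 0.92 in SK-Hep1 (adjusted p = 0.000154). HK2, a hexokinase, fell by 1.38 (8.62 ± 0.103 TPM with siGCDH and 24.1 ± 0.588 TPM with siControl, adjusted p = 7.25e-06) and PFKP, a phosphofructokinase, rose by 0.88 (adjusted p = 5.46e-06) in the libraries labelled SKBR3. ALDOA, an aldolase, fell by 0.92 in A375 batch 1 (adjusted p = 0.00628), where 2 of 11 fell and 0 rose (1 was higher at an unadjusted p under 0.05 by limma). ALDOC, another aldolase, fell by 0.67 in A375 batch 2 (adjusted p = 0.000795), and PFKM fell by 0.63 in SK-Hep1 (adjusted p = 0.000232). Among 13 genes of thiamine transport and other thiamine diphosphate enzymes, which share the cofactor of TKT, 2 rose and 1 fell in A375 batch 2, 2 rose and 2 fell in SK-Hep1, and 1 rose and 7 fell in the libraries labelled SKBR3. These counts depended on the scaling, with 2 higher and 5 lower in SK-Hep1 and 1 higher and 10 lower in the libraries labelled SKBR3 after median scaling, and 1 higher and 5 lower in SK-Hep1 and 0 higher and 10 lower in those libraries after quantile normalization. After median scaling all tested genes had 4250 calls higher and 3312 lower in SK-Hep1, and 5130 higher and 4088 lower in the libraries labelled SKBR3. The unscaled shares do not apply to the scaled counts. Without scaling, the A375 batch 2 and SK-Hep1 counts lay below the shares of all tested genes given above, in both directions. In the libraries labelled SKBR3 the falls lay above that share and the rises below it. BCKDHA, a subunit of the branched-chain keto acid dehydrogenase, fell by 1.59 in SK-Hep1 (adjusted p = 0.000428) and by 1.87 in the libraries labelled SKBR3 (adjusted p = 0.000499). BCKDHA was also the 1 of 11 that fell in A375 batch 1 (-0.87, adjusted p = 0.046, but adjusted p = 0.154 after median scaling), where 0 rose, also at an unadjusted p under 0.05 by limma. BCKDHB, the partner subunit, fell by 0.74 in A375 batch 2 (adjusted p = 0.00515), where the thiamine transporter SLC19A2 rose by 0.35 (adjusted p = 0.00842).

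**Figure D5:**
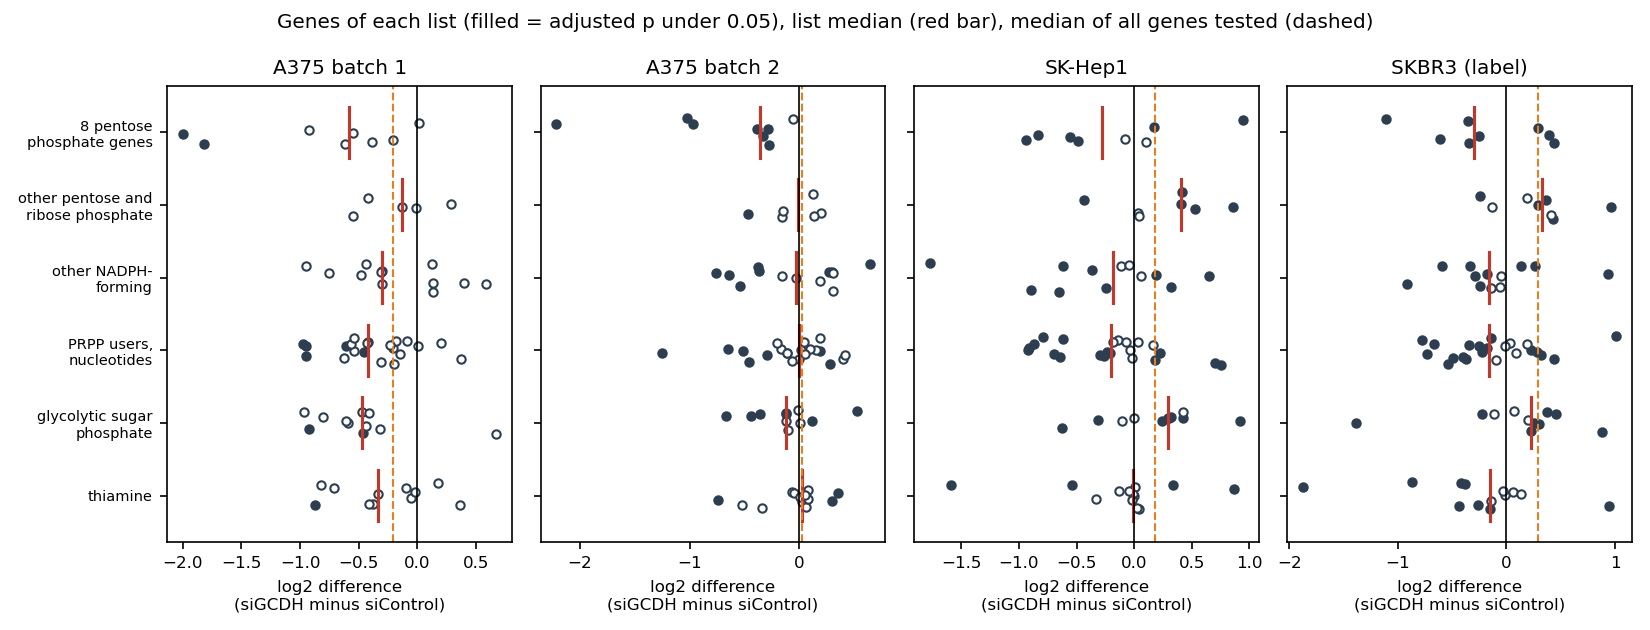
Log2 differences of siGCDH minus siControl for the 8 genes and for 5 lists of related genes in each line and batch; each point is a gene, filled where the adjusted p is under 0.05, red bars are list medians and dashed lines are the medians of all tested genes. TKT lies at the low end in A375 batch 2, at -2.21, apart from the other points.

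Near-identical copies bear on these values, because the authors' estimates divide reads among them. The table held 10 rows of pseudogenes named after the 8 genes, and the highest of them reached 2.13 TPM in any library. Reads shared between PRPS1 and PRPS2 cannot be checked in TPM values.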

How the data were processed

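RNA sequencing libraries from 24 wells were grouped by their labels into 8 groups of 3. The values are TPM made by the authors, 1 deposited column per library. The submitters' processing notes name hg38 as the build and list RSEM 1.3.1, cutadapt 2.3 and STAR 2.7.0d; neither an annotation version nor a strand setting was given in the sources used here. Because TPM has a fixed sum and keeps no read totals, a large shift in a few rows moves all others. No libraries held identical values.

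From these values log2(TPM + 1) was computed, and a gene was kept where its mean over the libraries of a fit reached 1 TPM. The 6 libraries of a line and batch had their own limma 3.58.1 fit (trended eBayes, statmod 1.5.0, R 4.3.3). Tests were two-sided, p-values were adjusted by Benjamini-Hochberg over all genes of the fit, and an adjusted p under 0.05 was called. Counts at an unadjusted p under 0.05 were not set beside a share of all tested genes. Differences of effects were interactions on 12 libraries, and siControl levels were compared in 1 fit of the 9 full-length siControl libraries. Levels were not compared between the kits. The fits were tested on simulated data. Sequences were read from GENCODE 29 transcripts and from RefSeq promoters with Python 3.11.15, pandas 2.3.3 and numpy 2.4.6, and figures were drawn with matplotlib 3.10.9.

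The 8 genes, the 5 lists of related genes and the marker lists were chosen with earlier results of these data known. Named list genes were the 2 called genes with the largest differences in each list and comparison, the called genes of the other pentose and ribose phosphate list, and the 5 genes with the highest Pearson r to TKT over 18 full-length libraries centred per line (mean of at least 5 TPM). Some genes that these rules take are not reported here. Alternatives were pseudocounts of 0.1 and 5, no filter or one of 5 TPM, median scaling, quantile normalization, no trend, a replicate block, 1 fit of all 24 libraries, removal of the chromosome 21 ribosomal RNA rows and leaving out each library.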

Additional observations from a re-analysis of the deposited data

Results flagged for a closer look

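The knockdown effect differed between lines, by a limma test of the difference itself, in the following cases, all given as log2 differences of the siGCDH minus siControl effect. For A375 batch 2 minus SK-Hep1 the differences were -1.91 for RPIA, -1.28 for TKT, -0.55 for PGLS, -0.54 for PRPS1, -0.38 for TALDO1, 0.28 for PGD and 0.78 for PRPS2. For A375 batch 2 minus the libraries labelled SKBR3 they were -1.60 for TKT, -1.36 for RPIA, -0.82 for PGLS, -0.67 for PRPS1, -0.63 for RPE and 1.05 for PRPS2. For SK-Hep1 minus the libraries labelled SKBR3 they were -0.37 for RPE, -0.32 for TKT, -0.27 for PGLS, -0.22 for PGD, 0.27 for PRPS2, 0.36 for TALDO1 and 0.55 for RPIA. The 3 contrasts share groups, so they are not independent of each other. RPIA and PGLS fell in A375 batch 2 and rose in both SK-Hep1 and the libraries labelled SKBR3, although the PGLS call in SK-Hep1 was lost after median scaling. For SK-Hep1 minus the libraries labelled SKBR3, the differences of RPE, PGLS and PGD were lost after median scaling and those of RPE and PRPS2 under the replicate block; for A375 batch 2 minus those libraries, RPE was -0.41 after median scaling (adjusted p = 0.00414). The libraries labelled SKBR3 go against their label in ERBB2 and KRT19, so these differences belong to the libraries and not with certainty to that line. In SK-Hep1, 5 of 7 hepatocyte markers stood at 0 in both groups. Its differences likewise belong to the libraries and not with certainty to the labelled line.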

How the results depend on the processing

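TKT kept its direction and its call within each line under all alternatives run (16 in A375 batch 1 and 15 in each other pair), with ranges of -2.08 to -1.71 in A375 batch 1, -2.24 to -2.19 in A375 batch 2, -1.05 to -0.90 in SK-Hep1 and -0.84 to -0.47 in the libraries labelled SKBR3. The joint fit of 24 libraries, where all groups share 1 spread, moved the counts of called genes among the 8 furthest: 6 in A375 batch 1, 4 in A375 batch 2, 5 in the libraries labelled SKBR3, 1 for SK-Hep1 minus those libraries and 1 between the A375 batches, against 2, 7, 8, 7 and 0. Calls over all genes in that fit were 5558 in A375 batch 1, 2802 in A375 batch 2, 4315 and 5545 for A375 batch 2 minus SK-Hep1 and minus the libraries labelled SKBR3, 3659 for SK-Hep1 minus those libraries and 2476 between the A375 batches, against 1018, 5099, 7183, 8643, 6504 and 772. In A375 batch 1 the count of the 8 was 1 without the trend (85 genes in all) and 1 to 3 when a library was left out (311 to 592 genes in all), with RPIA the call lost; calls over all genes were 590 with no filter, 506 after median scaling, 516 under quantile normalization and 488 without the chromosome 21 rows. Between the A375 batches those calls were 181, 222 and 186 under the last 3 settings, 225 without the trend and 261 to 1190 with a library left out. Median scaling left 4 called for SK-Hep1 minus the libraries labelled SKBR3. Quantile normalization gave 1 called between the A375 batches, TKT at -0.84. The cause of these moves was not tested.

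Signs turned only for differences that had not passed. In A375 batch 1 PGLS was 0.038 under quantile normalization, 0.092 without the chromosome 21 rows and -0.36 to 0.053 when a library was left out, and PGD was -0.26 to 0.28. TALDO1 in SK-Hep1 was -0.011 after median scaling, and RPE there was -0.13 to 0.0065 with a library left out. For A375 batch 2 minus the libraries labelled SKBR3, TALDO1 was 0.19 after median scaling, past the threshold, and -0.051 to 0.0015 with a library left out. Between the A375 batches RPE was -0.060 (pseudocount 5), -0.11 (median scaling), -0.19 (quantile), -0.20 (without the chromosome 21 rows) and -0.034 to 0.18 with a library left out, TALDO1 was -0.12 (quantile) and -0.039 (without the chromosome 21 rows), and PRPS1 was -0.22 to 0.086 with a library left out. For siControl levels, TKT in A375 batch 2 minus SK-Hep1 was -0.19 after median scaling, 0.18 under quantile normalization, both past the threshold, and -0.049 to 0.025 with a library left out, and RPE in SK-Hep1 minus the libraries labelled SKBR3 was 0.078 and 0.073 under those scalings.

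Replicate numbers did not pair the libraries: deviations of same-numbered siGCDH and siControl libraries correlated at -0.028 to 0.057. With the replicate block, 1 of the 8 genes was called in A375 batch 1 (357 genes in all), 243 genes in all between the A375 batches and 5 of the 8 for SK-Hep1 minus the libraries labelled SKBR3, and the blocked count of the 8 in every other comparison equalled that without the block. Depth is unknown in TPM, so what counting error limits cannot be given.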
